A study of Homo sapiens with 8 samples.

Results

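The 10 genes described here are the inflammasome adaptor *PYCARD*, its partner protease *CASP1*, the sensors *AIM2*, *IFI16*, *NLRP1* and *NLRP3*, the DNA sensing pair *CGAS* (formerly *MB21D1*) and *STING1* (formerly *TMEM173*), and the RNA sensing genes *TLR3* and *MAVS*. They are 10 of the 64486 genes of the GENCODE annotation, 20176 of which are protein-coding, and all 10 were matched by symbol. They were chosen by name, with their methylation peaks in these data already known, so everything below is a description and no test was made on it. The values that chose them were the presence of a peak in the promoter window, from 1500 bp before to 1000 bp after any transcriptional start site (TSS), or in the gene body, in each line and by *MYCN* status. A gene body is the annotated extent of a gene, and the canonical TSS is that of the transcript that the annotation marks as representative.

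The data are MBD-seq peak lists of 8 neuroblastoma (NB) cell lines, which are established cultures of tumor cells. Sheared genomic DNA was captured with the methyl-CpG-binding domain of MBD2 and sequenced, so a peak marks a place where captured fragments piled up. No input control is given in the sources used here, so a peak cannot be equated with methylation. The lines labelled as *MYCN* amplified (MNA) are N206, LAN-2 (LA-N-2 in its label), IMR-32 and CHP-902R, and those labelled as not amplified (*MYCN* single copy) are SK-N-AS, CLB-GA, SJNB-1 and SH-SY5Y. No treatment is given for any line and each stands for 1 sample, so the 4 lines of a group differ in much besides *MYCN* and stand in for its replicates. Each peak carries a score that rises as its p-value falls, from 50 upwards in each list, where 50 stands for a p-value of 1e-05.

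The lists held 70816 (SJNB-1) to 112412 peaks (LAN-2), with 88496 to 112412 in MNA lines and 70816 to 86079 in single copy lines, and they hold no read counts. The study gives its reads only as a range over the lines, and the depth of any one list is unknown and a missing peak does not show a lack of methylation. Around *MYCN*, within 1 Mb on either side, peaks covered 8.68% to 19.8% of the sequence in MNA lines and 1.87% to 4.76% in single copy lines, in the order the labels give. The lists do not separate copy number from methylation, and the part of copy number in the peaks elsewhere was not tested. CHP-902R is amplified by its label and by the study's supplement, and its cover at *MYCN* was 14.1%, but the main text of the study names the other 3 MNA lines alone where it compares the groups. Values without CHP-902R are therefore given where they matter. In a single line, 36.1% to 40.9% of the protein-coding genes had a promoter peak in MNA lines and 33.2% to 38.4% in single copy lines.

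Inflammasomes are protein assemblies of the innate immune system. A sensor such as AIM2, NLRP1 or NLRP3 that has met its trigger recruits PYCARD, also known as ASC, through its pyrin or caspase recruitment domain, and PYCARD gathers caspase-1, which matures interleukin precursors and cuts gasdermin D so that the cell membrane is pierced. DNA in the cytosol is read in parallel by cGAS, which makes the messenger cGAMP that STING1 binds, and double-stranded RNA by TLR3 in endosomes and by RIG-I-like helicases that signal through MAVS. Methylation of a CpG-rich promoter is commonly linked to a silent gene, and *PYCARD* is also known as *TMS1*, for a target of methylation-induced silencing.

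The DNA behind the main results differs strongly in its CpG content, which is what the capture protein binds when methylated. The stretches below are shown on the strand of the gene from 5′ to 3′ in GRCh37, in lower case with each CG, the dinucleotide that carries the methylation, in capitals. The first is the coding part of *PYCARD* exon 1 (chr16:31213738-31214011, minus strand), which lies inside the peaks over the TSS of all 4 MNA lines and has 31 CG in 274 bases.

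PYCARD: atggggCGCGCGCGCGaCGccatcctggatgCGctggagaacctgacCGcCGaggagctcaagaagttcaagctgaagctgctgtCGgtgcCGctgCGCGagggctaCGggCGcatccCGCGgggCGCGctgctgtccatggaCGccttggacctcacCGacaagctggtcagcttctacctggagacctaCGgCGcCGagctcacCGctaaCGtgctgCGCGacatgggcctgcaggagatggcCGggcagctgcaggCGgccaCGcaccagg

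The second is the 250 bases upstream of the most upstream TSS of *CASP1* (chr11:104905978-104906227, minus strand), where no line had a peak and where 1 CG is present.

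CASP1: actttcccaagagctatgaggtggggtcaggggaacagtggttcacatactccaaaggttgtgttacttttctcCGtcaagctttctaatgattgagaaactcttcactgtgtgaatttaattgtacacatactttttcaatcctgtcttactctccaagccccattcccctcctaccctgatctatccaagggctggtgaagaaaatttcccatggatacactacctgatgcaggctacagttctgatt

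Another pair comes from inside genes. In *NLRP1*, 250 bases of intron 5 (chr17:5448618-5448867, minus strand) from the place that recurred in 5 lines hold 1 CG among runs of TG. In *NLRP3*, 230 bases of coding exon 4 (chr1:247587149-247587378, plus strand) from the place that recurred in 3 MNA lines hold 10 CG.

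NLRP1: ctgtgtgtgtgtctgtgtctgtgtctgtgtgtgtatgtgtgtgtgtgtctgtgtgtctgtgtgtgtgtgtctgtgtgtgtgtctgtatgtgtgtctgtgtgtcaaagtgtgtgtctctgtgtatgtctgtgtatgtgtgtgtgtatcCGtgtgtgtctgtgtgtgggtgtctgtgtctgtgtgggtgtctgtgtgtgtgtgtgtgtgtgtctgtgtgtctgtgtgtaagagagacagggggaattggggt

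NLRP3: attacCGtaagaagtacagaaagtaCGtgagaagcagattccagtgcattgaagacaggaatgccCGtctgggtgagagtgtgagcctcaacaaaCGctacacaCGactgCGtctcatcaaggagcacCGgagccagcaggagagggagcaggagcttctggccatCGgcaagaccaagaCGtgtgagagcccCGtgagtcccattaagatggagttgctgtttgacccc

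Peaks at these genes were found in more lines for some members than for others, and *PYCARD* alone separated the *MYCN* groups. With any TSS counted, a promoter peak was found in 6 lines for *NLRP1*, 5 for *CGAS*, 4 for *PYCARD*, 3 each for *AIM2* and *STING1*, 2 each for *NLRP3* and *TLR3*, 1 each for *IFI16* and *MAVS*, and none for *CASP1*. Thus 9 of 10 members had a promoter peak in at least 1 line, beside 73.9% of all protein-coding genes and 55.6% of all genes. In at least 4 lines it was 3 of 10, beside 39.5% of the protein-coding genes. Gene body peaks were found in at least 1 line for 9 of 10 members (88.3% of the protein-coding genes), and *CASP1* had no peak in either place (9.94% of them). None of these shares sets the 10 genes apart from other genes.

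By line, CHP-902R had a promoter peak at 7 members, LAN-2 at 5, IMR-32 at 4 and N206 at 3, whereas each of the 4 single copy lines had one at 2. The MNA lines thus had 4.75 ± 1.71 members with a promoter peak (SD, n = 4). Counted as pairs of a member and a line, 19 of 40 pairs (47.5%) had a promoter peak in MNA lines and 8 of 40 (20%) in single copy lines. Among all protein-coding genes, the mean share per line was 38.6% in MNA lines and 35.2% in single copy lines. The members thus lay above this share in MNA lines and below it in single copy lines. Pairs of the same line are not replicates. Without *PYCARD*, which was picked for this contrast, the counts were 15 of 36 (41.7%) and 8 of 36 (22.2%). The other 9 members were chosen with the same readout known, so no test was made on them either. CHP-902R carried 7 of the 19 pairs, and 12 were counted without it. In lists cut to the 70816 highest-scoring peaks of each line, the count was 16 pairs for the MNA group and 6 for the single copy group. Such lists are of equal length but not of equal depth. The members were also chosen by these peaks, so nothing is read from the order of the groups.

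**Figure D1:**
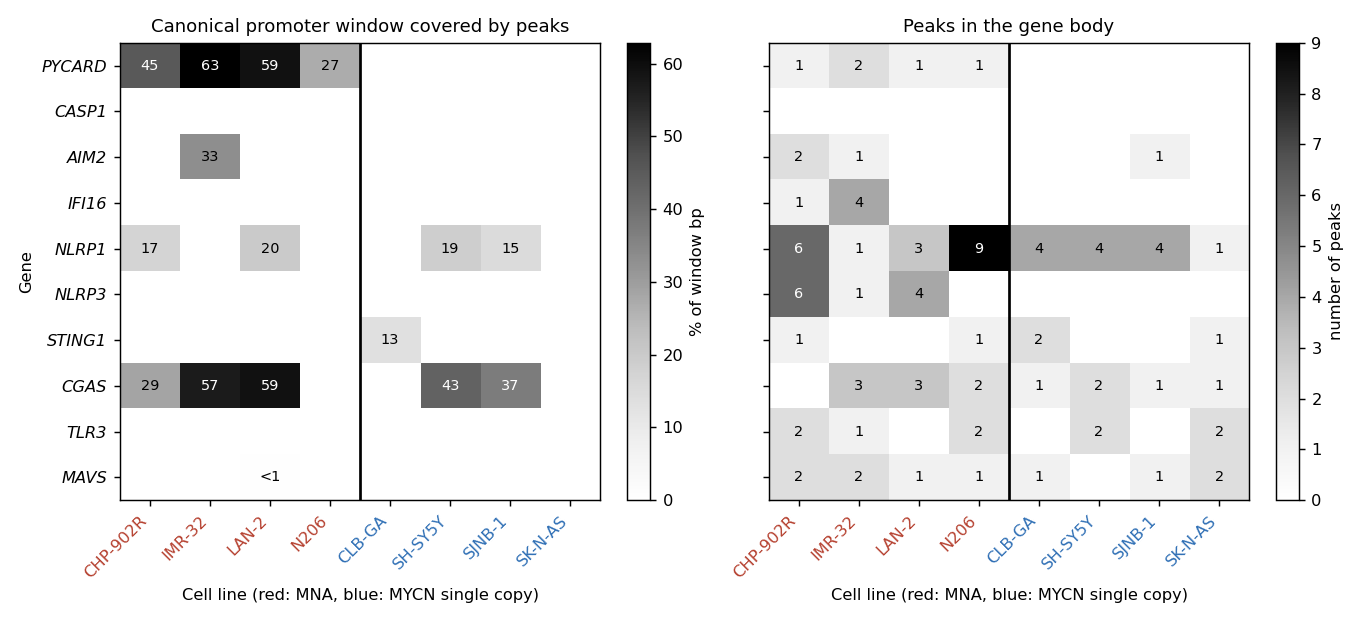
Percent of the canonical promoter window (1500 bp upstream to 1000 bp downstream of the canonical TSS) covered by peaks (left) and number of gene body peaks (right) for each of the 10 genes (rows) in each line (columns, MNA in red and *MYCN* single copy in blue); blank cells are 0. *PYCARD* was covered by 26.8% to 62.9% in the 4 MNA lines and not at all in single copy lines, whereas *CGAS* was covered in lines of both groups and *CASP1* in none.

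*PYCARD*, the adaptor, lies on the minus strand at chr16:31212807-31214771 and has 3 exons and its canonical TSS at position 31214081. Every MNA line had a peak over this TSS. In CHP-902R it ran from 310 bp upstream to 824 bp downstream (score 71.9), in LAN-2 from 475 bp upstream to 1211 bp downstream (score 168) and in N206 from 309 bp upstream to 360 bp downstream (score 104). IMR-32 had a pair of peaks, one from 588 bp upstream to 385 bp downstream (score 111) and a weaker one from 402 to 1144 bp downstream (score 67.4). In single copy lines there was no peak in the window or the gene, and the nearest peak to the TSS was 9558 bp away in CLB-GA, 9300 bp in SJNB-1, 5809 bp in SH-SY5Y and 5727 bp in SK-N-AS.

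The share of the 2501 bp window that was covered showed how far the lines stood apart. It was 62.9% in IMR-32, 59.0% in LAN-2, 45.4% in CHP-902R and 26.8% in N206, against 0 in the 4 single copy lines. The groups therefore did not overlap, but this is the pattern for which *PYCARD* was picked. Over all genes, 94 (0.146%) had a promoter peak in every MNA line and in no single copy line, and among protein-coding genes 40 (0.198%), so nothing is read from it here. The peaks were not all strong: when only scores of at least 100 were counted, *PYCARD* had a promoter peak in 3 MNA lines, without CHP-902R, and in no single copy line.

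**Figure D2:**
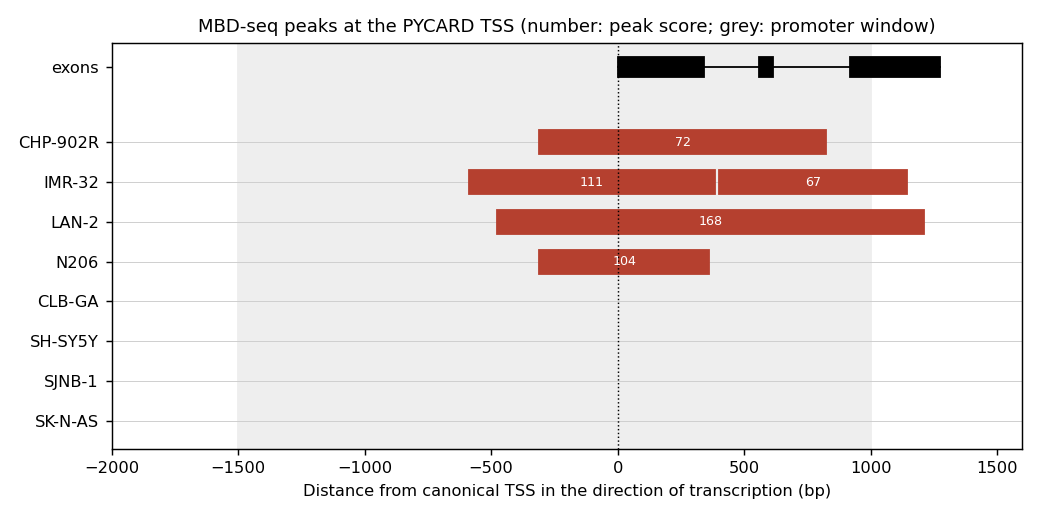
Peaks around the canonical TSS of *PYCARD* in each line, by distance in bp in the direction of transcription, with the peak score printed on each bar, the exons in black and the promoter window in grey (MNA in red). All 4 MNA lines have a peak across the TSS and the single copy lines have none in the region drawn.

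The 4 peaks over the TSS shared 670 bp, from 309 bp upstream to 360 bp downstream, which is exactly the peak of N206. This interval holds 60 CG (8.96 per 100 bp) at a GC content of 69.9%, and it takes in exon 1 with the coding sequence printed above. For comparison, GRCh37 has 0.985 CG per 100 bp, and the median canonical promoter window of a protein-coding gene 4.20. The *PYCARD* peaks over the TSS were denser in CG than 96.7% to 99.6% of the peaks in their own lists, and the second peak of IMR-32 denser than 86.7%. The whole window is more ordinary, with 4.60 CG per 100 bp, above 56.7% of the protein-coding genes. All 626 stretches of 45 bp in the shared interval, the length of a read, occur once in the genome.

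Peak cover was also taken for the surroundings of *PYCARD*. Within 1 Mb on either side of the gene, peaks covered 2.94% to 3.83% of the sequence in MNA lines (median 3.73%) and 1.44% to 3.32% in single copy lines (median 2.71%). The ranges overlap because N206 (2.94%) was below SH-SY5Y (3.32%), whereas the other MNA lines were above every single copy line. Over the whole genome, peaks covered 1.69% to 1.97% of the sequence in MNA lines (median 1.77%) and 1.28% to 1.69% in single copy lines (median 1.42%). The part of the wider region in the promoter result was not tested. Of the neighbouring genes with a TSS within 50 kb, *TRIM72*, a membrane repair gene, had a promoter peak in CHP-902R and IMR-32, and *PYDC1*, which encodes a pyrin-only inhibitor of PYCARD, in IMR-32. Neither of them separated the groups. The promoter window of the antisense RNA gene *PYCARD-AS1*, which overlaps *PYCARD*, had peaks in the same 4 lines, and since captured DNA has no strand the peaks cannot be assigned to either gene.

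The pattern of *PYCARD* over the lines was found in 93 other genes, 39 of them protein-coding. By the distance between the percentages of the canonical window covered in the 8 lines, the protein-coding genes most like it were *HOXD12* (distance of 45.7 percentage points), *TMDD1* (47.4), *ACSS3* (47.9), *ABCC9* (51.0) and *TAF5* (52.9). *HOXD12*, a homeobox gene, was covered by 52.8% to 76.0% in the MNA lines, and *ACSS3*, which encodes an acyl-CoA synthetase, by 24.0% to 46.9%. These distances are large beside the coverage of *PYCARD* itself, so that the likeness is mainly in which lines have a peak.

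*CASP1*, which encodes the protease that PYCARD recruits, lies on the minus strand at chr11:104896124-104905977 and had no peak in any line. The nearest peak to its canonical TSS was 14901 bp away in LAN-2, 18388 bp in SH-SY5Y, 18465 bp in CLB-GA, 40884 bp in N206, 65621 bp in CHP-902R, 68837 bp in SK-N-AS, 171731 bp in SJNB-1 and 469773 bp in IMR-32. Its canonical window has 0.760 CG per 100 bp, lower than that of most protein-coding genes (6.42% have fewer), so few binding sites for the capture are there, as the stretch printed above shows. Peaks were scarce in the wider region too, with 0.0313% to 0.885% of the sequence within 1 Mb covered. Whether the CG content set the absence of peaks was not tested.

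The DNA sensors *AIM2* and *IFI16*, which bind DNA through a HIN domain, are neighbours on chromosome 1 and were nearly free of peaks at their canonical TSS. *AIM2* (chr1:159031389-159157633, minus strand) had a peak at the canonical promoter in IMR-32, from 932 to 106 bp upstream (score 74.3), and covering 33.1% of the window. Its other peaks lay 28 kb or more upstream of that TSS. Those of CHP-902R (score 86.9) and SK-N-AS (64.1) were in promoter windows of longer transcripts, and a second one of CHP-902R (78.9) and that of SJNB-1 (63.8) between them and the canonical TSS. The annotated *AIM2* also overlaps *CADM3*, a protein-coding gene on the other strand without a promoter peak in any line. The distant peaks therefore cannot be assigned to *AIM2* alone. *IFI16* (chr1:158969758-159024945, plus strand) had 4 peaks in IMR-32, in introns 1, 5 and 6 with scores of 60.3 to 74.5, and 1 peak in CHP-902R in intron 6 (score 58.8) at the place of one of them. No other line had a peak in *IFI16*, and in SK-N-AS, SH-SY5Y and SJNB-1 the nearest peak to its canonical TSS was 56727 to 56795 bp away. The *IFI16* places are partly repeated sequence, with 67.8% to 100% of their 45 bp stretches occurring once in the genome. Both windows are poor in CG, with 0.880 per 100 bp for *AIM2* and 0.840 for *IFI16*.

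*NLRP1*, a sensor of microbial proteases and other insults, was the member with the most peaks and the one with a gene body peak in all 8 lines. It spans 120010 bp (chr17:5402735-5522744, minus strand) with 34 annotated TSS, and it held 32 of the 97 member peaks. N206 had 9 of them, CHP-902R 6, CLB-GA, SH-SY5Y and SJNB-1 4 each, LAN-2 3, and IMR-32 and SK-N-AS 1 each. The counts of the single copy lines lay within the range of the MNA lines. A gene body peak in all 8 lines was found in 32.8% of the protein-coding genes.

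The most frequent place in *NLRP1* was in intron 5 (chr17:5448424-5449125), between 38.7 and 39.4 kb downstream of the canonical TSS. It had a peak in all 4 MNA lines and in SH-SY5Y, with scores of 162 in IMR-32, 157 in LAN-2, 151 in SH-SY5Y, 110 in CHP-902R and 62.9 in N206. In IMR-32 it was the only *NLRP1* peak, and there it scored above 97.8% of the peaks of the list. High scores went with few CG here: the 702 bp hold 8 CG (1.14 per 100 bp), and the 5 peaks were denser in CG than only 2.24% to 7.03% of the peaks in their lists. Of 658 stretches of 45 bp, 656 occur once in the genome, although the sequence printed above consists largely of short TG runs.

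At the canonical *NLRP1* promoter, CHP-902R, LAN-2 and SH-SY5Y shared a peak across the end of exon 1 and the start of intron 1, 375 to 875 bp downstream of the TSS, with scores of 75.1, 59.0 and 65.2. It covered 17.2% of the window in CHP-902R, 19.7% in LAN-2 and 18.8% in SH-SY5Y. SJNB-1 had a different peak, 1311 to 940 bp upstream (score 58.1, 14.9% of the window). Further peaks lay at the 3′ end of the gene, among them a place 76.5 to 77.1 kb downstream of the TSS with a peak in CHP-902R, CLB-GA and SH-SY5Y. The last intron and exon of the canonical transcript had one in CHP-902R, N206 and SJNB-1.

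Some *NLRP1* peaks with high scores were found in 1 line. N206 had a peak in intron 3 with a score of 135 and CLB-GA one over exon 13 with a score of 132. CHP-902R had a peak 28041 to 28712 bp upstream of the canonical TSS, inside the longest annotated transcripts, with a score of 102. In intron 12, CHP-902R (114) and N206 (68.4) shared a peak, and N206 (50.6) and SH-SY5Y (90.3) another one. SK-N-AS had only a peak near the end of the gene (51.5), at a place it shared with N206 (63.7) and that was the densest in CG of all *NLRP1* places (6.76 per 100 bp). This place lies beyond the canonical 3′ end, where a further protein-coding gene without a symbol overlaps *NLRP1* and has a promoter peak in the same pair of lines, so the peak cannot be assigned to either gene. The gene body peak of *NLRP1* in SK-N-AS rests on it. Cover within 1 Mb of *NLRP1* was 1.45% to 2.50% in MNA lines and 1.19% to 3.36% in single copy lines, ranges that overlap.

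*NLRP3*, which encodes the sensor of membrane damage and crystals (chr1:247579458-247612410, plus strand), had peaks in 3 MNA lines only and none at its canonical promoter. CHP-902R had 6 peaks, LAN-2 4 and IMR-32 1, whereas N206 and the 4 single copy lines had none. A gene body peak in at least 3 MNA lines and no single copy line was found in 0.595% of the protein-coding genes, and in at least 2 MNA lines and no single copy line in 2.09%. *PYCARD* and *NLRP3* met the first and also *IFI16* the second, and since the members were picked with these readouts known nothing is read from it. Counting promoter peaks at any TSS, *PYCARD*, *NLRP3* and *TLR3* had one in at least 2 MNA lines and no single copy line (4.26% of the protein-coding genes).

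The place in *NLRP3* that recurred in IMR-32 (score 92.6), LAN-2 (82.0) and CHP-902R (56.6) was the border of intron 3 and exon 4, at chr1:247586886-247587877, with 3.43 CG per 100 bp. Exon 4 is the large coding exon of the gene, and part of it is printed above. Exon 2 had a peak in CHP-902R (score 78.9) and LAN-2 (70.0), 2.1 to 3.0 kb downstream of the canonical TSS but in the promoter windows of other annotated TSS. In the wider region, 2.51% to 5.12% of the sequence within 1 Mb was covered in MNA lines and 1.45% to 2.66% in single copy lines. These ranges overlap, as N206 (2.51%) was below SH-SY5Y (2.66%). Over the whole genome the cover was also higher in MNA lines by median (1.77% against 1.42%). The part of the wider region in the result was not tested. N206, the MNA line without an *NLRP3* peak, had the lowest of the 4 MNA values.

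**Figure D3:**
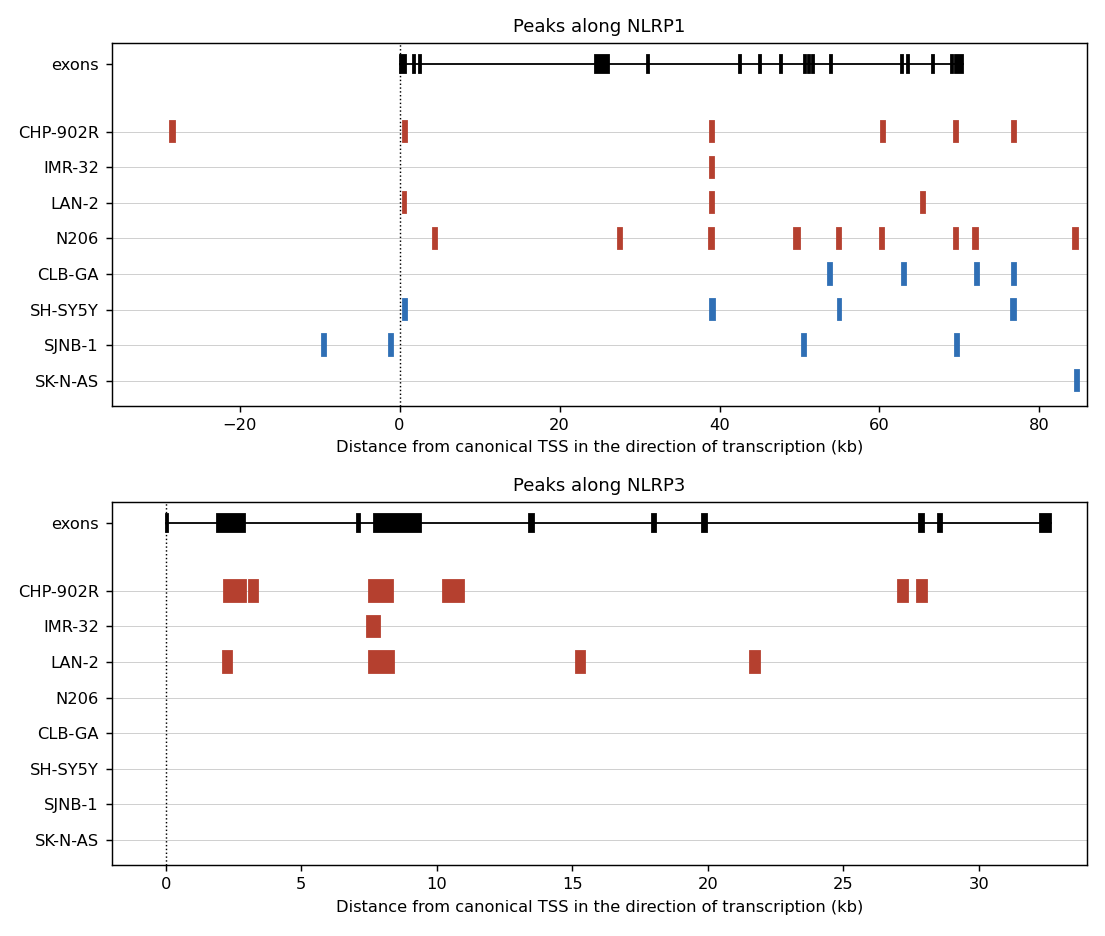
Peaks along *NLRP1* (top) and *NLRP3* (bottom) in each line, by distance in kb from the canonical TSS in the direction of transcription, with the exons of the canonical transcript in black (MNA in red, *MYCN* single copy in blue; bars are drawn at the width of the peaks). The intron 5 peak of *NLRP1* near 39 kb is present in 5 lines of both groups, and the *NLRP3* peaks are all in 3 MNA lines.

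*CGAS*, the cytosolic DNA sensor (chr6:74123238-74162020, minus strand), was the member with the most lines at its canonical promoter. A peak was found there in LAN-2 (score 109), IMR-32 (80.2), CHP-902R (70.2), SJNB-1 (67.8) and SH-SY5Y (67.3), and not in N206, CLB-GA or SK-N-AS. It covered 59.1% of the window in LAN-2, 56.9% in IMR-32, 28.7% in CHP-902R, 37.3% in SJNB-1 and 43.1% in SH-SY5Y. The lines with a peak thus came from both groups, 3 MNA and 2 single copy, and their scores overlapped. A canonical promoter peak in at least 5 lines was found in 8.49% of the protein-coding genes.

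In 4 of the 5 lines the *CGAS* peak crossed the TSS, whereas in CHP-902R it ended 88 bp upstream of it. The 5 peaks shared 554 bp, from 641 to 88 bp upstream, with 25 CG (4.51 per 100 bp), of which 79.0% of the 45 bp stretches occur once in the genome. The window is rich in CG, with 5.96 per 100 bp, above 76.4% of the protein-coding genes. In the lines without a promoter peak, the nearest one to the TSS was 10741 bp away in CLB-GA, 10790 bp in SK-N-AS and 24624 bp in N206. All lines but CHP-902R had a further peak inside the gene or its promoter peak reached into it, so that 7 lines had a gene body peak. Inside *CGAS*, N206 had a pair of peaks in intron 4 (scores 51.7 and 71.6) and SK-N-AS one in intron 2 (58.7), while those of IMR-32, LAN-2, CLB-GA and SH-SY5Y lay beyond the canonical 3′ end, 31.1 to 35.5 kb downstream of the TSS. Only 1 of these places was shared, by LAN-2 (89.4) and SH-SY5Y (61.2). At its 3′ end the annotated gene overlaps *DDX43*, a helicase gene on the other strand with a promoter peak in 6 lines, and the peaks there cannot be assigned to either gene.

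**Figure D4:**
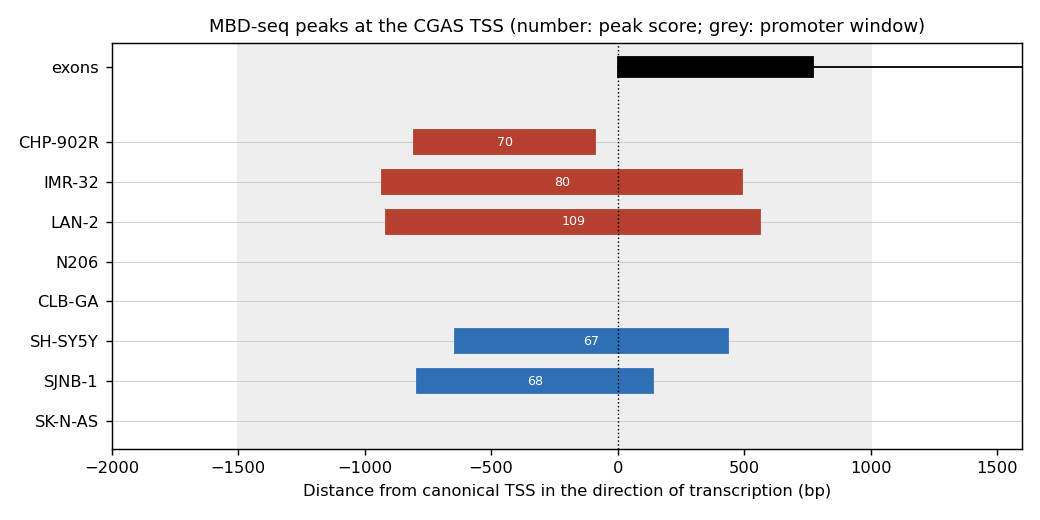
Peaks around the canonical TSS of *CGAS* in each line, by distance in bp in the direction of transcription, with the peak score printed on each bar, the exons in black and the promoter window in grey (MNA in red, *MYCN* single copy in blue). A peak lies at the TSS or just upstream in CHP-902R, IMR-32, LAN-2, SH-SY5Y and SJNB-1, and in none of the other 3 lines.

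*STING1*, which encodes the receptor of the cGAS product (chr5:138855118-138862520, minus strand), had 5 peaks at 3 places. The place over exons 3 and 4, 1065 to 1638 bp downstream of the canonical TSS, had a peak in CHP-902R (score 108) and SK-N-AS (51.6). The place at exon 6 had one in N206 (52.2) and CLB-GA (60.1). CLB-GA alone had a peak at the canonical TSS, from 13 bp upstream to 317 bp downstream (score 54.5, 13.2% of the window). Each place was thus either shared by an MNA and a single copy line or found in 1 line, and the gene had no peak in LAN-2, IMR-32, SJNB-1 or SH-SY5Y.

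*TLR3*, the endosomal receptor of double-stranded RNA (chr4:186990065-187009227, plus strand), had 9 peaks in 5 lines and none at its canonical promoter. A place in intron 1, 3087 to 3693 bp downstream of the TSS, had a peak in IMR-32 (score 114), SK-N-AS (65.4) and SH-SY5Y (59.6). A second place in intron 1 was shared by N206 (82.3) and SK-N-AS (81.6), and one in exon 5 by CHP-902R (73.4) and SH-SY5Y (61.4). The promoter peaks counted for CHP-902R and N206 lay in intron 3, near the TSS of shorter transcripts. LAN-2, CLB-GA and SJNB-1 had no peak in the gene.

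*MAVS*, the mitochondrial adaptor of RNA sensing (chr20:3827446-3856770, plus strand), has a window rich in CG (denser than that of 63.2% of the protein-coding genes) that was almost without peaks. Only a peak of LAN-2 (score 65.0) reached into the window, by 13 bp or 0.520% of its length, from the upstream side. N206 and CLB-GA had a peak just outside the same edge, 1575 and 1601 bp upstream of the TSS, so this count depends on where the window ends. By contrast, 7 lines had a peak in the gene body, all but SH-SY5Y. The most frequent place, from intron 6 into exon 7 (chr20:3846033-3847048), had one in SK-N-AS (81.4), SJNB-1 (70.7), CLB-GA (58.6) and LAN-2 (53.2), that is in 3 single copy lines and 1 MNA line. Further places in exon 7 had a peak in IMR-32 (66.1) and SK-N-AS (56.3), in N206 (71.5) and in CHP-902R (61.7). CHP-902R also had one in intron 1 (59.7) and IMR-32 one in intron 2 (52.8), both in partly repeated sequence, with 61.3% and 53.3% of the 45 bp stretches occurring once in the genome. The highest *MAVS* score was thus that of SK-N-AS, and no peak of the gene reached 100.

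Over all 10 genes there were 97 peaks, 66 in MNA lines and 31 in single copy lines. CHP-902R had 22, N206 16, IMR-32 15 and LAN-2 13, against 8 in CLB-GA, SH-SY5Y and SK-N-AS and 7 in SJNB-1, so that the groups did not overlap. LAN-2, which has the longest list, had the fewest of the MNA lines. With lists of equal length the counts were 51 and 27, without CHP-902R the MNA lines had 44, and without *PYCARD* they had 61. Without *NLRP1*, the counts were 47 and 18, with N206 at 7 and SK-N-AS also at 7, so that the groups then met. Per 100 kb of gene body, the members had 2.72 to 4.76 peaks in the MNA lines, where all protein-coding genes had 3.88 to 5.21, and 1.59 to 1.81 in single copy lines, where all protein-coding genes had 3.12 to 3.80. CHP-902R was the line in which the members exceeded the protein-coding genes (4.76 against 4.24).

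Most places were not shared between lines. Merging overlapping peaks gave 59 regions, of which 37 had a peak in 1 line, 13 in 2 lines and 9 in at least 3 lines, with at most 5 lines at *CGAS* and *NLRP1*. Of the 59, 33 (55.9%) were found in MNA lines only and 9 (15.3%) in single copy lines only. Over the whole genome, where the MNA lists are also the longer ones, these shares were 39.2% and 27.9% of the merged regions, and as the members were picked with their peaks known nothing is read from the difference. Scores of at least 100 were reached by 15 peaks, 12 of them in MNA lines, and 9 of the 15 were in *NLRP1*. The highest score in the members was that of *PYCARD* in LAN-2, above 96.8% of the peaks of that list.

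**Figure D5:**
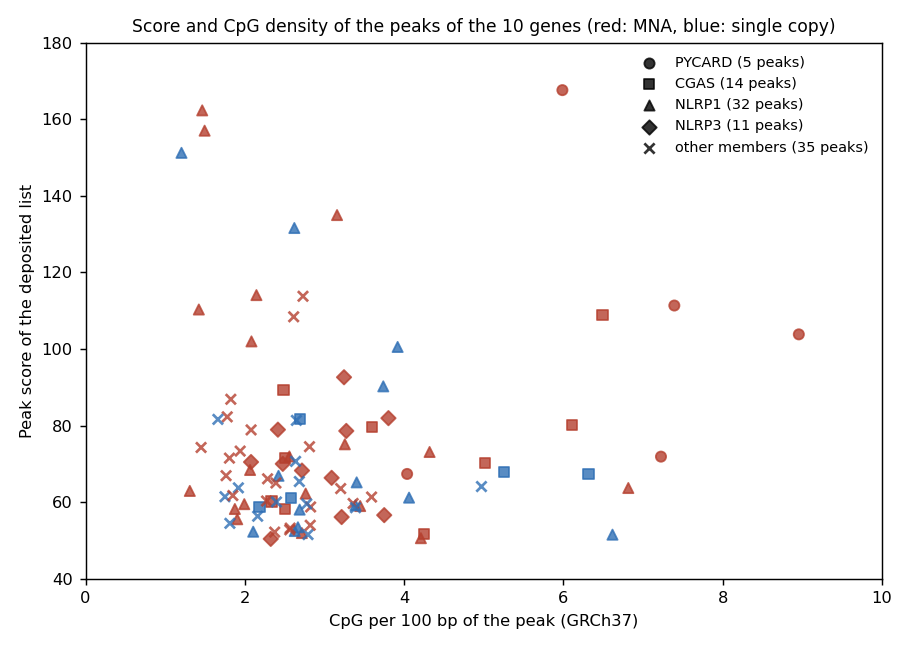
Score of each of the 97 peaks against the CG content of its sequence in GRCh37 (per 100 bp), by gene (symbols) and *MYCN* group (red for MNA, blue for single copy). The peaks of *PYCARD* and *CGAS* at the TSS or just upstream of it lie to the right, between 5.01 and 8.96 CG per 100 bp. The *NLRP1* peaks of N206 (6.81) and SK-N-AS (6.62) near the end of that gene lie in the same range. The intron 5 peaks of *NLRP1* lie to the left, with 4 of their 5 scores above 100.

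The canonical windows of the 10 genes fell unevenly over the range of CG content. When the protein-coding genes were divided into 3 classes of similar size, 7 members were in the lowest class (up to 3.08 CG per 100 bp), *PYCARD* and *MAVS* in the middle class (up to 5.20) and *CGAS* in the highest. Of the protein-coding genes in these classes, from low to high, 40.1%, 52.8% and 53.7% had a canonical promoter peak in at least 1 line. Among the members, a canonical peak in at least 1 line was found in 6 of 10 (48.9% of all protein-coding genes), and in at least 4 lines in *CGAS*, *PYCARD* and *NLRP1* (13.1%). *NLRP1*, with 1.80 CG per 100 bp, thus had canonical peaks in 4 lines whereas *MAVS*, in the middle class, had the edge of 1 peak.

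The wider pathway, 82 further genes in 6 lists, had promoter peaks about as often as other genes. At any TSS, 60 of 82 (73.2%) had a peak in at least 1 line and 30 (36.6%) in at least 4 lines, beside 73.9% and 39.5% of the protein-coding genes. None of the 82 had a promoter peak in every line of one *MYCN* group and in no line of the other. In at least 4 lines, a peak was found in 4 of 12 further sensors and adaptors of inflammasomes, 2 of 10 effectors and cytokines, 0 of 11 inhibitors and regulators, 8 of 18 DNA sensing genes, 5 of 12 RNA sensing genes and 11 of 19 adaptors, kinases and interferon regulators.

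A promoter peak in 7 or 8 lines was found in 10 of these 82 genes, and in 13.4% of the protein-coding genes, so that the lists do not stand out in this either. At the canonical TSS it was found in 7 lines for *NOD2*, which encodes a sensor of bacterial cell wall fragments, and for *TRAF3*, a ubiquitin ligase gene of interferon signalling, in 6 lines for *TRIM25*, whose product modifies RIG-I, and in 4 lines for *DHX58*, a RIG-I-like helicase gene. For the other 6 it was found only at other TSS and in 0 lines at the canonical one: *GSDMD*, the gasdermin gene, *PRKDC*, the catalytic subunit of the DNA-dependent protein kinase, *STIM1*, a calcium sensor gene, *TBK1*, the kinase gene downstream of STING1, *ADAR*, an RNA editing enzyme gene, and *STAT2*, a transcription factor gene of the interferon response. Several of these have many annotated TSS, 47 for *TBK1* and 28 for *STIM1*, so that a window at any TSS takes in much of the gene. The inhibitors and regulators were the list with the fewest. Among them *CARD16* and *CARD17P*, decoy relatives of *CASP1*, had no promoter peak in any line, and neither had *PYDC2*, *TXNIP* and *P2RX7*. *CARD18*, another relative of *CASP1*, had one in CHP-902R, CLB-GA and SH-SY5Y, in no line at its canonical TSS.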

How the data were processed

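MBD-seq peak lists of 8 NB cell lines, 1 sample each, were analysed. According to the study's methods and the labels, the authors aligned the paired-end reads to GRCh37 (Bowtie 0.12.7) and ran the peak caller MACS on every line by itself. The options of the peak calling and an input control are not given in the sources used here. The score of each peak was taken as deposited by the authors and is read as the negative log10 of the MACS p-value multiplied by 10. It was compared only as a description, because it rises with depth, and the lists hold no counts, so the depth of a single line is not known from them.

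The 10 members and the 6 pathway lists (82 genes matched) were chosen with earlier results of these data known. Promoter windows (1500 bp upstream to 1000 bp downstream) were placed at every annotated TSS (GENCODE release 44, lifted to GRCh37), with a minimum overlap of 1 bp. CG content and uniqueness of 45 bp stretches came from the GRCh37 sequence. Python 3.11.15, numpy 2.4.6, scipy 1.17.1, numba 0.67.0 and matplotlib 3.10.9 were used, and the overlap step was tested on simulated peaks. Groups were set by the label for *MYCN*, and no test was made. Besides the members, the genes named are list genes with a promoter peak in 7 or 8 lines, protein-coding genes within 50 kb of *PYCARD*, genes overlapping a member, and the 5 protein-coding genes most like *PYCARD*. *CARD16*, *CARD17P*, *CARD18*, *PYDC2*, *TXNIP* and *P2RX7* were named after their values were seen. Overlapping genes without a bearing on a result are not listed, and not every gene that the rule names is reported here. The alternatives were scores of at least 100, lists of equal length, the peak midpoint or at least 50% of the peak inside the window, a window to 500 bp downstream, canonical TSS or protein-coding transcripts only, and each line left out.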

Additional observations from a re-analysis of the deposited data

Results flagged for a closer look

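Of 12 groups of 4 lines examined for a line far from the others, 1 was flagged: SJNB-1 had 7 member peaks, where the other 3 single copy lines had 8 each. The gap is 1 peak, and chance flags about 1 group in 20.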

How the results depend on the processing

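The *PYCARD* promoter peak was found in 4 MNA lines and no single copy line under each alternative for window, overlap, TSS set and list length. These alternatives can only remove peaks, and the nearest single copy peak lay 5727 bp or more from the TSS. None of them could therefore add a single copy line. As *PYCARD* was picked for this pattern, nothing is read from it. At scores of at least 100 it was found in 3 MNA lines. Leaving out 1 line could not change how *PYCARD* separated the groups, because every MNA line and no single copy line had the peak. At scores of at least 100, promoter peaks in at least 1 line fell from 9 to 3 members, those in at least 4 lines from 3 to 0, members with a gene body peak from 9 to 5, member promoter pairs from 19 to 5 in MNA lines and from 8 to 0 in single copy lines, pathway list genes from 60 to 23, and genes separating the groups from 94 to 22. Canonical TSS gave 11 and 5 pairs and 34 pathway list genes. The separating genes numbered 48 in lists of equal length, 34 with protein-coding transcripts, and 145 to 246 with 1 line left out. With fewer lines the rule asks less of a gene, so this last number could only stay or rise. Leaving out 1 line gave 12 to 19 MNA pairs, the 12 without CHP-902R, and 6 to 8 single copy pairs. For the sums of member peaks, whose alternatives were chosen after seeing the data, scores of at least 100 gave 12 MNA and 3 single copy peaks, leaving out *NLRP1* gave 18 single copy peaks, and leaving out 1 line gave 44 to 66 and 23 to 31. No value reversed. No paired analysis was possible because the replicate numbers of the lines only follow the order of the samples, no label ties a line of one group to a line of the other, and no test was made. Without read counts, a peak that is missing cannot be told apart from one that fell short at the depth of the line.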

Other observations

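The pathway lists hold genes whose promoter peaks leaned to either *MYCN* group without separating them, named here after their values were seen. *ZBP1*, which encodes a sensor of Z-form nucleic acids, and *NLRC4*, an inflammasome sensor gene, each had a promoter peak in all 4 single copy lines and in 1 MNA line, IMR-32 for *ZBP1* and LAN-2 for *NLRC4*, as did 0.436% of the protein-coding genes. *IRF9*, an interferon response gene, and *EIF2AK2*, which encodes the RNA-activated kinase PKR, each had one in 3 MNA lines (CHP-902R, LAN-2 and N206) and in no single copy line, where at least 3 MNA lines and no single copy line were found for 1.22% of the protein-coding genes. Of these, *ZBP1* had canonical TSS peaks in 4 lines and *EIF2AK2* in 2, *NLRC4* had one in LAN-2, and *IRF9* had none.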
